A study of Mus musculus with 2 samples.

Results

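The genes described here are those of the major histocompatibility complex (MHC), of antigen presentation and of the interferon response: 83 of the 21474 protein-coding genes measured in mouse erythroleukaemia cells. They were chosen by gene symbol alone: every protein-coding H2 gene, B2m, Tap1, Tap2, the tapasin genes, Nlrc5, Ciita, the Irf, Ifit, Oas and numbered Gbp genes, Isg15, Isg20, the Ifnar and Ifngr receptor genes, Stat genes and Mx1. A further 3 genes whose symbols fit (Gbp5, Gbp6 and Gbp10) could not be matched by gene identifier and were not analysed here. The RNA was polyadenylated RNA of MEL cells, an established mouse line of erythroid precursors transformed by Friend virus, in which dimethyl sulfoxide (DMSO) induces haemoglobin synthesis. All cells had been kept in 2% DMSO for 5 days, and the 2 single-end libraries are numbered as biological replicates 1 and 2. Both carry the same cell sample identifier, so that the labels leave it unsettled whether the cultures were separate. Untreated cells were not analysed here. The values are therefore levels under DMSO, and nothing below describes a change caused by it.

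Class I molecules show peptides from inside the cell to cytotoxic T cells and to natural killer cells. A heavy chain, encoded by an H2 gene, pairs with the light chain beta-2 microglobulin, and the TAP transporter and tapasin load the peptide in the endoplasmic reticulum. Interferons bind receptors that act through JAK kinases, STAT proteins and IRF9, and these switch on antiviral genes and raise class I genes. Erythroid cells are known to lose class I molecules as they mature.

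Replicate 1 held 26149725 estimated reads and replicate 2 held 14149299. By counting error alone, a gene without a read could still have had 3 counts, or 0.115 and 0.212 CPM in replicates 1 and 2, CPM being a count divided by the library total. All 8 erythroid markers checked were above 1 TPM in both libraries, among them Gata1 at 208.92 and 388.48. TPM is a read count scaled to transcript length and library size. Of 33 markers of macrophages, B cells, T and NK cells, fibroblasts and endothelium, 4 reached 1 TPM in both libraries (Cd74, Lck, Cd68 and Pecam1), 4 in 1 library, and 25 in none. These 33 markers summed to 32.0 TPM in replicate 1 and 33.4 in replicate 2, and 9 of them, including Pax5, Cd14 and C1qa, had no read in either library. In a bulk sample, fewer cells that express a gene and less RNA per cell cannot be told apart. Throughout, levels are TPM with the value of replicate 1 first, and a gene is called expressed at 1 TPM or more in both libraries and silent below 1 TPM in both. With 1 group of 2 libraries there is no test between conditions and no p-value.

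Of the 83 genes, 37 were expressed and 40 were silent, and 6 crossed the limit in 1 library only. The background was similar: 45.5% of all protein-coding genes were expressed by the same rule and 51.0% were silent. No read was assigned in either library to 18 of the 83, against 29.5% of all protein-coding genes. The median level was 0.785 TPM over the 83 genes and 0.6 over all protein-coding genes. Among expressed genes the median was 7.41 TPM for the 37 and 15.5 for all protein-coding genes. Only 11 genes stood at 10 TPM or more in both libraries, and together the 83 made up 0.0551% of all TPM in replicate 1 and 0.0636% in replicate 2. By role, the 4 peptide loading genes and the 4 receptor genes were all expressed, and 12 of the 15 receptor, STAT and IRF genes. Of the class II genes, 4 of 9 were expressed by gene total, which is near the share of all genes. The M series of class I genes had 1 of 12 and the interferon-stimulated effectors 6 of 27. No test was made between roles.

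**Figure D1:**
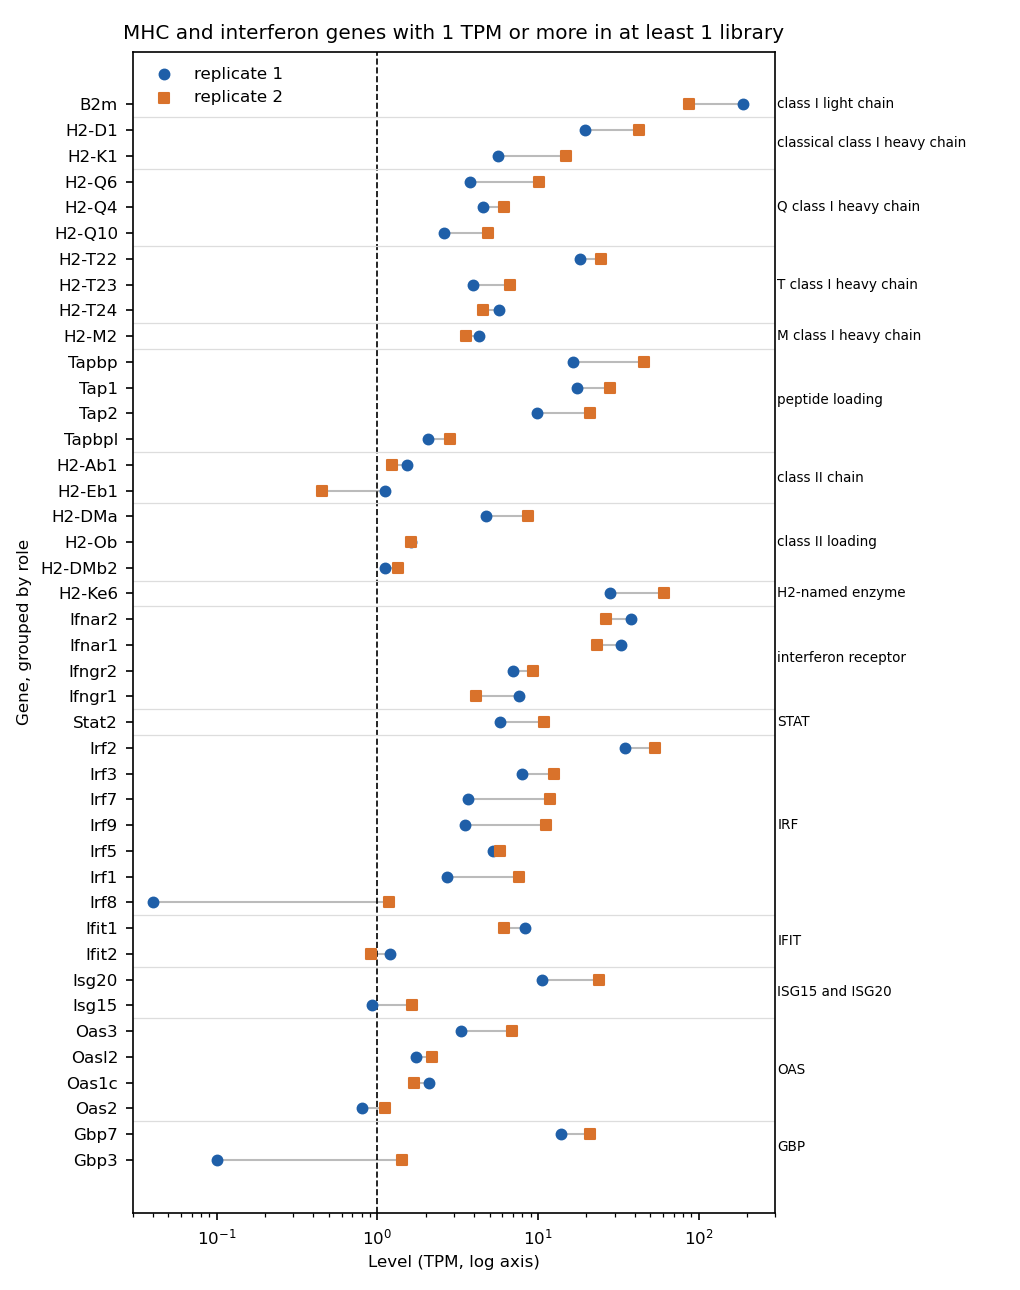
Level in TPM (log axis) of genes with 1 TPM or more in at least 1 library, grouped by role, with 1 point per library joined by a grey line. The dashed line is 1 TPM. B2m lies furthest to the right at 188.34 and 87.79 TPM, and Irf8 and Gbp3 have the widest gaps between libraries.

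B2m, the light chain shared by class I molecules (ENSMUSG00000060802, chromosome 2, 122147686 to 122153083 on the plus strand), had the highest mean of the 83. Its level was 188.34 TPM in replicate 1 and 87.79 in replicate 2, or 138 ± 71.1 (SD, n = 2). That placed it 423rd and 963rd among protein-coding genes. B2m was the higher in replicate 1, unlike 7 of the 9 expressed heavy chains described next.

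H2-D1 and H2-K1 encode the classical heavy chains, which present peptides to cytotoxic T cells. H2-D1 (ENSMUSG00000073411, chromosome 17, 35262730 to 35267499) stood at 19.56 and 42.70 TPM. H2-K1 (ENSMUSG00000061232, chromosome 17, 33996017 to 34000347) stood at 5.67 and 14.93. H2-D1 was thus the higher of the pair in both libraries, by 3.45-fold and 2.86-fold, and each gene was higher in replicate 2. The deposited credibility bounds of H2-D1 (17.07 to 21.03 in replicate 1 and 37.2 to 42.4 in replicate 2) and of H2-K1 (4.98 to 6.89 and 12.3 to 16.8) did not overlap within either library. These bounds describe how well reads could be assigned in 1 library and not the spread between cultures.

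The nonclassical heavy chains were mixed. H2-T22, whose product is a ligand of gamma delta T cells, was by gene total the second heavy chain at 18.25 and 24.84 TPM. On transcripts annotated as coding it was at 2.41 and 6.97, below H2-K1 at 5.14 and 13.79. H2-T23, which encodes the Qa-1 molecule read by natural killer cell receptors, stood at 3.94 and 6.74, and H2-T24 at 5.73 and 4.54. The T series thus held 3 expressed genes of 4, and H2-T3, which encodes the thymus leukaemia antigen, had no read. In the Q series, H2-Q6 was at 3.77 and 10.23, H2-Q4 at 4.56 and 6.16, and H2-Q10, known as a secreted liver product, at 2.61 and 4.89. H2-Q7 (0.93 and 0.57) and H2-Q2 (0.45 and 0.58) were under the limit in both libraries, and H2-Q1 had no read.

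The M series was nearly empty, with 1 expressed gene of 12. H2-M2 was at 4.28 and 3.59 TPM. H2-M3, which presents formylated bacterial peptides, was at 0.30 and 0.58, and H2-M5 had 1 estimated read in all. The other 9, H2-M1, H2-M9, H2-M11 and the 6 H2-M10 genes known from vomeronasal neurons, had no read in either library. For the 18 genes without a read among the 83, 3 counts would have stood for 0.0554 to 0.129 TPM in replicate 1 and 0.0980 to 0.228 in replicate 2.

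Over all 24 class I heavy chain genes, 9 were expressed and 15 silent, 11 of them without a read. Their summed level was 70.05 TPM in replicate 1 and 120.38 in replicate 2, or 95.2 ± 35.6 (SD, n = 2). H2-K1 and H2-D1 together held 36.0% and 47.9% of that sum, and H2-D1, H2-T22 and H2-K1 together 62.1% and 68.5%. These shares are by gene total, and most of the H2-T22 part lay on a transcript annotated for nonsense-mediated decay. By gene total, B2m exceeded the heavy chain sum 2.69-fold in replicate 1 and reached only 0.729 of it in replicate 2. The order of light and heavy chain message by gene total thus turned over between the libraries. On coding transcripts alone the mean heavy chain sum was 72.1 TPM, while B2m had 100% of its TPM on a coding transcript. The size of these ratios therefore depends on which transcripts are counted. B2m plus the heavy chains can be followed in these data only as messenger RNA.

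**Figure D2:**
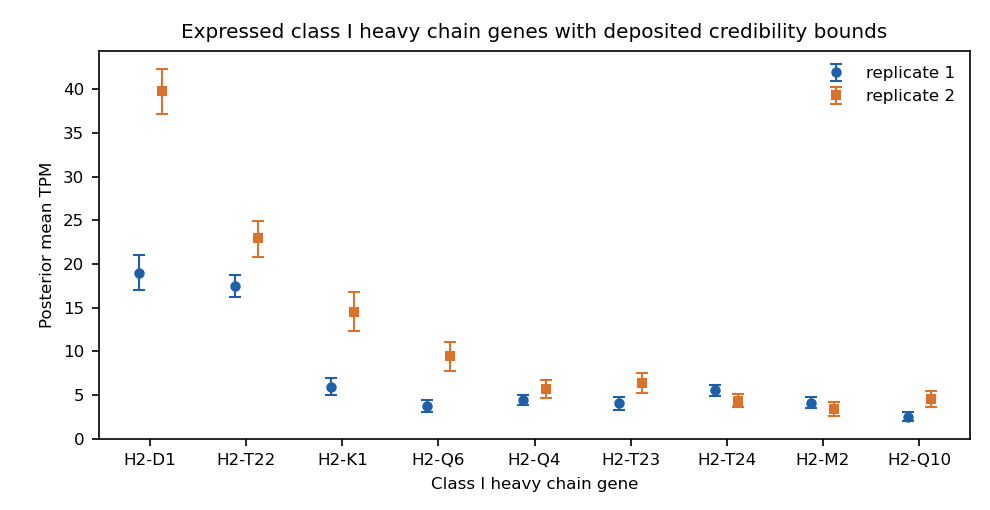
Posterior mean TPM of the 9 expressed class I heavy chain genes in replicate 1 (circles) and replicate 2 (squares), on a linear axis from 0, with bars for the deposited credibility bounds within each library. H2-D1, H2-T22 and H2-K1 lead in replicate 2, and H2-T24 and H2-M2 are the genes with the lower value there.

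Heavy chain genes are close copies, and their reads had to be divided by estimation. Among the coding sequences of the 9 expressed genes, identity over the 36 pairs ran from 68.5% to 92.0% with a median of 76.6%. The closest pair was H2-D1 and H2-K1. The deposited posterior SD of the count, which widens where reads are shared, was at most 5% of the count in at least 1 library for each of the 37 expressed genes. Heavy chain genes are also highly polymorphic between mouse strains, and MEL lines come from DBA/2 mice while reads were placed on the reference strain. Its effect on which gene received a read was not tested.

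The promoters of the light chain and of the classical heavy chains are shown because they hold known class I control motifs. They run from 250 bases before to 50 bases after an annotated start, 5′ to 3′ on the strand of the gene, and come from RefSeq on GRCm38.p6, the build of the files. Capitals mark matches to the interferon-stimulated response element core GAAANNGAA in B2m, and to the kappaB core GGGATTCCC followed by the class I interferon response core TTTCACTTC in H2-D1 and H2-K1.
B2m, chr2:122147437-122147736, plus strand: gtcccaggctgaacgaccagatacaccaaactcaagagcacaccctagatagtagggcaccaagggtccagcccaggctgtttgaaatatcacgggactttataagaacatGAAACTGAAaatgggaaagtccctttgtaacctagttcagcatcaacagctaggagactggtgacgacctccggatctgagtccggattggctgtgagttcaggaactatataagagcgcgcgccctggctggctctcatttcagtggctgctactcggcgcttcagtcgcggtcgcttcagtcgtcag
H2-D1, chr17:35262844-35263143, plus strand: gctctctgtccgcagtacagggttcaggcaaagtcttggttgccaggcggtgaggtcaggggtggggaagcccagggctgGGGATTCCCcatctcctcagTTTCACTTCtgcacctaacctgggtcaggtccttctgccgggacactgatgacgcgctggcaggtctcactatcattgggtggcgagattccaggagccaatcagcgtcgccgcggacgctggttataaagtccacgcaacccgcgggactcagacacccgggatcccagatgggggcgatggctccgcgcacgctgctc
H2-K1, chr17:34000284-34000583, minus strand: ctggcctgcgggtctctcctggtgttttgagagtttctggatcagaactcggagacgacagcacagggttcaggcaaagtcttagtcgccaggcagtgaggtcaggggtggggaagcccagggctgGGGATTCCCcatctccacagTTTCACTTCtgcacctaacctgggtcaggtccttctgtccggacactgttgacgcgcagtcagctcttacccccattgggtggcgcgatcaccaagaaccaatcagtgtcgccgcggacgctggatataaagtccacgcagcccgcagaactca
Both strands were searched for each motif, and a match describes letters and not a bound factor. In H2-D1 the kappaB match began 170 bases before the start and the class I motif 150 bases before it. In the H2-K1 promoter shown they began at 124 and 104 bases, and the B2m match at 139. Promoter sequences were found for 67 of the 83 genes, in a table of 32851 promoters.

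The kappaB core occurred in 0.353% of all promoters in that table, in 0.414% of its 27025 genes (any promoter of a gene) and in 5 of the 67 genes: the expressed H2-D1, H2-K1, H2-Q6 and Irf1 and the silent H2-Q7. The class I motif occurred in 0.505% of promoters, in 0.596% of genes and in 8 of the 67 genes. Of the 8 expressed heavy chains with a promoter sequence, 5 had it (H2-D1, H2-K1, H2-Q6, H2-Q4 and H2-Q10). Among 14 silent ones, H2-Q7 and H2-M3 had it. The other 11 genes of the M series, which include the expressed H2-M2, lacked it. Outside the heavy chains it was found in Irf2. The GAAANNGAA core was held by H2-T22 and H2-T23, or 2 of the 8 expressed heavy chains, and by 0 of the 14 silent ones. It occurred in 9.76% of all genes, and with so few heavy chains these counts do not set the groups apart. The class I motif and the length of the cores were settled after these promoters had been read, so the counts are descriptions only.

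Peptide loading genes were all expressed. Tapbp, which encodes tapasin, the bridge between TAP and the empty class I molecule, was at 16.58 and 45.53 TPM. Tap1 and Tap2, whose products form the peptide pump of the endoplasmic reticulum, were at 17.40 and 28.03 and at 9.87 and 21.22. Tapbpl, a tapasin relative that edits peptides, was the lowest at 2.06 and 2.85. Each was higher in replicate 2, and by gene total Tap1 exceeded Tap2 by 1.76-fold and 1.32-fold. On transcripts annotated as coding, Tapbp was at 16.2 and 23.83 TPM, Tap1 at 16 and 21.7 and Tap2 at 1.32 and 2.96. These transcripts held 97.7% and 52.3% of Tapbp. A coding transcript of only 587 bases held 74.0% and 52.8% of Tap1, or 12.87 and 14.8 TPM. Without that transcript Tap1 would lie below the gene total of Tap2 in both libraries. The order and the fold between these genes therefore depend on which transcripts are counted.

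The peptide supply was also present. Of a list of 13 proteasome, trimming and chaperone genes, 13 were expressed, beside 45.5% of all protein-coding genes, with a median of 37.2 TPM. The highest were the chaperones Canx (533.56 and 148.87), Calr (338.48 and 213.84), Hspa5 (126.75 and 126.13) and Pdia3 (158.62 and 78.87), which serve glycoproteins in general. The lowest were Erap1, which trims peptides (5.46 and 2.06), and Psmb10 (2.46 and 5.54). The interferon-inducible proteasome subunits were scarce beside the constitutive ones they replace. Psmb5 exceeded Psmb8 by 3.77-fold and 5.01-fold, Psmb6 exceeded Psmb9 by 6.19-fold and 14.3-fold, and Psmb7 exceeded Psmb10 by 13.4-fold and 6.93-fold. The constitutive subunit was the higher in 3 of 3 pairs in both libraries.

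Neither transactivator was expressed. Nlrc5, which drives class I genes, stood at 0.23 and 0.01 TPM, with 7 and 1 estimated reads. Ciita, which drives class II genes, stood at 0.13 and 0.55, with 17 and 39. A list of 10 factors of class I and II promoters held the RFX, NF-Y and CREB genes, through which both transactivators act, the NF-kappaB genes Nfkb1 and Rela, which bind a separate enhancer, and the repressor gene Ezh2. All 10 were expressed, beside 45.5% of all protein-coding genes, with a median of 25.9 TPM. Ezh2 led at 280.65 and 71.74, followed by Nfya at 91.00 and 182.91, Rfx5 at 30.09 and 45.13 and Rfxap at 35.99 and 28.77. Nfkb1 (6.94 and 15.17) and Rfxank (1.32 and 3.0) were the lowest of that list.

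Class II genes present taken-up antigen to helper T cells. By gene total 4 of their 9 genes were expressed, beside 45.5% of all protein-coding genes, and the 9 summed to 10.98 and 14.36 TPM. On transcripts annotated as coding, H2-DMa alone of the 4 kept 1 TPM or more in both libraries (3.90 and 5.36). H2-Ab1 (1.43 and 0), H2-Ob (1.63 and 0.45) and H2-DMb2 (0.50 and 1.35) did not. H2-Ab1, the beta chain of the A molecule, was at 1.54 and 1.24, with 42 and 8 estimated reads. Its partner H2-Aa stayed under the limit at 0.63 and 0.65. H2-Eb1 was at 1.12 and 0.45, and H2-Eb2 had no read. The loading factors were uneven: H2-DMa, a chain of the H2-DM peptide editor, was at 4.73 and 8.63, while its partners H2-DMb2 and H2-DMb1 were at 1.12 and 1.35 and at 0.17 and 0. Of the H2-DO pair, H2-Ob was at 1.63 and 1.62 and H2-Oa at 0.04 and 0.42.

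Of 6 listed partner genes of class II, 2 were expressed, beside 45.5% of all protein-coding genes. Cd74, the invariant chain, was at 12.45 and 10.51 TPM, and Ifi30, a lysosomal thiol reductase, at 2.91 and 4.45. Cd86 (0.55 and 0.24), the protease gene Ctss (0.66 and 0.06), Cd40 (0.04 and 0.33) and Cd80 (0.22 and 0.13) were silent. Cd74 is also a marker of B cells, and the 7 B cell markers summed to 15.1 and 11.8 TPM, most of it from Cd74 itself. Markers of macrophages and dendritic cells summed to 4.90 and 9.82 TPM. The part of such cells in the class II reads was not tested.

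H2-Ke6 is an H2 gene by name and by its place in the complex, but it encodes a steroid and fatty acid dehydrogenase. It stood at 28.11 and 60.75 TPM, which by gene total was the highest mean of the 37 genes on chromosome 17. On coding transcripts alone it was at 24.09 and 29.53, and H2-D1 at 19.41 and 42.56, so that H2-Ke6 did not lead there in replicate 2. Retained-intron transcripts held 14.3% and 51.4% of H2-Ke6. Taken in map order, expressed and silent genes among these 37 alternated within the class II genes and within the Q series. Other genes that lie between them were left out, so the order describes the chosen genes and not the chromosome. Tapbp at -80.1 kb, H2-K1 at 0 and H2-Ke6 at 30.0 kb were expressed at 1 end, and Tap1 and Tap2 lay among the class II genes 192 to 208 kb above H2-K1. H2-D1 lay 1267 kb above H2-K1. From H2-T3 at 2190 kb to H2-M3 at 3274 kb, 12 of the chosen genes in a row were silent. H2-M2 at 3485 kb followed as an expressed gene.

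**Figure D3:**
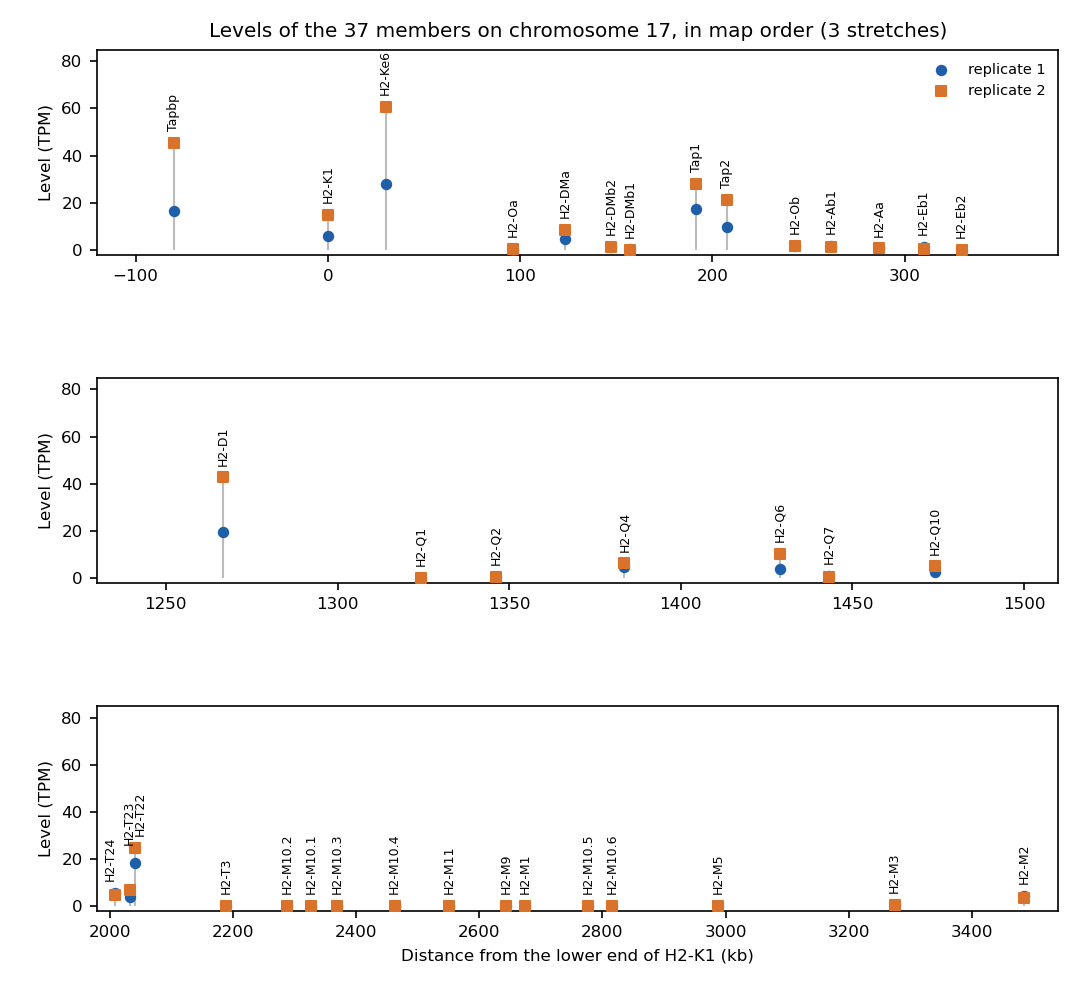
Level in TPM (linear axis) of the 37 genes on chromosome 17 against their distance in kb from the lower end of H2-K1, in 3 stretches of the complex, with 1 point per library. The tall points are H2-Ke6, Tapbp, H2-D1, Tap1, H2-T22, Tap2 and H2-K1, and the third stretch runs at or near 0 from H2-T3 to H2-M3.

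The interferon receptors were all expressed. Ifnar2 and Ifnar1, which form the receptor for type I interferons, were at 37.76 and 26.47 TPM and at 32.80 and 23.34. Ifngr2 and Ifngr1, which form the receptor for interferon gamma, were lower at 6.96 and 9.26 and at 7.60 and 4.10. By gene total the summed type I pair exceeded the interferon gamma pair by 4.85-fold and 3.73-fold. On transcripts annotated as coding, Ifnar2 was at 37.76 and 26.48 and Ifnar1 at 32.02 and 15.86. Ifngr1 was there at 4.31 and 4.10 and Ifngr2 at 3.82 and 3.81. A coding transcript of only 415 bases held 51.7% and 38.4% of Ifnar1. The fold therefore depends on which transcripts are counted. Every type I chain was above every gamma chain in both libraries.

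Stat2, a signal transducer of the type I pathway, was at 5.84 and 10.90 TPM. The kinases bound to the receptors were expressed as well: Jak1 at 28.79 and 25.70, Jak2 at 57.03 and 23.64, and Tyk2 at 18.32 and 43.11. Of 11 listed kinases and negative regulators, 9 were expressed, beside 45.5% of all protein-coding genes. The highest were the phosphatase genes Ptpn2 (93.73 and 29.07), Ptpn11 (48.52 and 51.51) and Ptpn6 (41.64 and 40.57), and Pias1 (61.86 and 33.72). The silent genes were the feedback inhibitors Socs1 (0.21 and 0.75) and Usp18 (0.48 and 0.80), both of which are known interferon targets.

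Among interferon regulatory factors, Irf2 stood apart. Irf2, which competes with the activator Irf1 for the same sites, was at 34.60 and 53.36 TPM (ENSMUSG00000031627, chromosome 8, 46739732 to 46847458), and Irf1 was at 2.73 and 7.62. Irf2 exceeded Irf1 by 12.7-fold and 7.0-fold. Irf3 and Irf7, which turn on interferon genes after a virus is sensed, were by gene total at 8.00 and 12.56 and at 3.66 and 11.97. On coding transcripts Irf7 was under the limit at 0.24 and 0.66. Irf9, a DNA-binding partner of Stat2, was at 3.5 and 11.31, and Irf5, a factor of Toll-like receptor signalling, at 5.23 and 5.77.

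The lineage-restricted factors were low. Irf8, a factor of myeloid and B cells, was at 0.04 and 1.19 TPM, with 3 and 9 estimated reads. Irf4, a lymphoid factor, was at 0.04 and 0.03. Taking receptors, STAT and IRF genes as a whole by gene total, 12 of 15 were expressed, beside 45.5% of all protein-coding genes. Of the others, 1 crossed the limit in 1 library and 2 were silent.

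The interferon genes themselves were not detected. All 10 listed genes, of type I (Ifnb1, Ifna1, Ifna2, Ifna4, Ifna5, Ifnk and Ifne), type II (Ifng) and type III (Ifnl2 and Ifnl3), had no read in either library. Of 21 listed genes of nucleic acid sensing, 16 were expressed, beside 45.5% of all protein-coding genes. The list held sensors, adaptors and kinases, and also enzymes of nucleic acids and nucleotides, which are not sensors. The highest were the ribonuclease H2 genes Rnaseh2a (36.49 and 87.40) and Rnaseh2b (22.60 and 27.36), Samhd1, a nucleotide hydrolase (53.38 and 34.41), and Mavs, the adaptor of the RNA sensors (15.41 and 27.95). Zbp1 and the DNA receptor Tlr9 had no read. The cytosolic DNA sensor Mb21d1 (cGAS) was present at 14.70 and 6.66, whereas Tmem173, which encodes its adaptor STING, was at 0.04 and 0.03.

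Of the 27 interferon-stimulated effector genes among the 83, 6 were expressed, 4 crossed the limit in 1 library and 17 were silent, 6 of them without a read. They summed to 44.89 and 69.20 TPM. Each family had its own leading gene. Gbp7, a guanylate-binding GTPase of host defence (ENSMUSG00000040253, chromosome 3, 142530342 to 142550149), was at 13.88 and 21.20 and held 92.4% and 91.3% of the TPM of the 7 GBP genes. Isg20, an RNA exonuclease, was at 10.53 and 24.02, and Ifit1, which binds viral RNA with an unmethylated cap, at 8.30 and 6.12. Isg15, the ubiquitin-like modifier, was at 0.93 and 1.64, with 16 estimated reads in each library.

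Within families the neighbours of a leading gene were low. Beside Ifit1, Ifit2 was at 1.20 and 0.91 TPM, Ifit1bl1, Ifit1bl2 and Ifit3b had 1 to 3 estimated reads in all, and Ifit3 had none. Some members of the OAS family, but not all, make the oligoadenylates that activate ribonuclease L, and activity was not measured here. Oas3 was at 3.33 and 6.85, Oasl2 at 1.74 and 2.18, Oas1c at 2.11 and 1.69 and Oas2 at 0.80 and 1.11. Oasl1 was at 0.11 and 0.44 and Oas1e at 0.03 and 0, and Oas1a, Oas1d, Oas1f, Oas1g and Oas1h had no read. Mx1, an antiviral GTPase, was the highest of the silent genes at 0.73 and 0.96, against a lowest expressed mean of 1.24 TPM for H2-DMb2.

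The other GBP genes were Gbp3 at 0.10 and 1.43 TPM, Gbp9 at 0.82 and 0.46, Gbp2 at 0.12 and 0.13, Gbp2b and Gbp4 at 0.04 and 0 each, and Gbp8 at 0.02 and 0. Gbp4, Gbp8 and Gbp9 overlap in the annotation, and Gbp3 had 6.45 and 9.83 estimated reads, so these values are uncertain. Gbp7 was the only GBP gene above 2 TPM in either library.

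Of 30 interferon-stimulated genes outside the 83, listed by choice, 24 were expressed, beside 45.5% of all protein-coding genes. The median over the 30 was 5.42 TPM, and the list does not stand for all such genes. The highest were Uba7, the activating enzyme for ISG15 (73.91 and 253.04), the membrane gene Ifitm2 (99.85 and 120.01), Ifi27 (64.93 and 84.46) and Eif2ak2, which encodes the kinase PKR (40.63 and 41.09). The lowest were Iigp1 (0.03 and 0) and Ifi204 (0.08 and 0), and Cxcl10, a chemokine gene induced by interferon gamma, was at 0 and 0.23. Uba7 was thus far above Isg15, the gene of the modifier it activates, in both libraries.

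**Figure D4:**
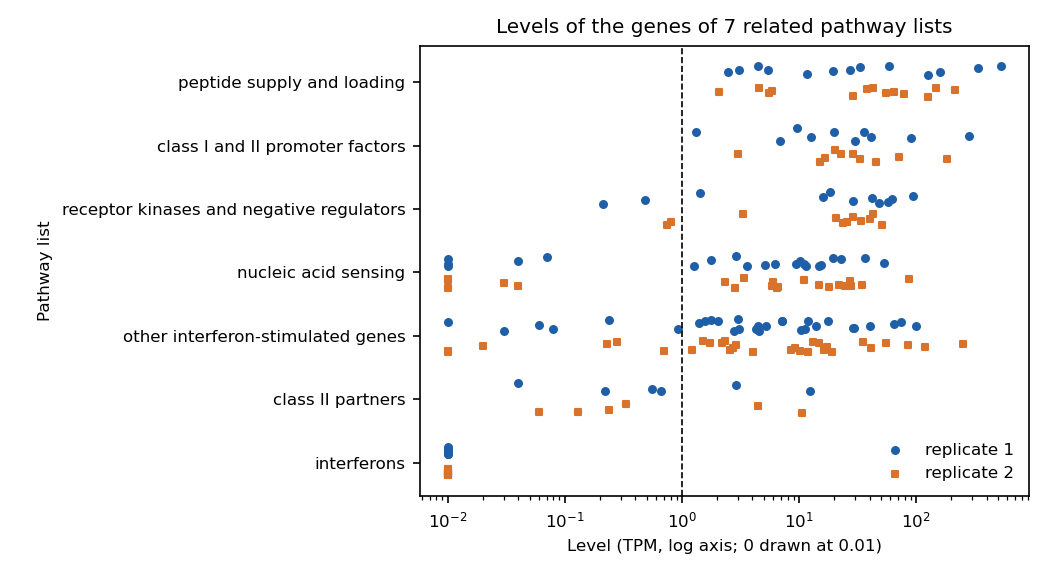
Level in TPM (log axis, with 0 drawn at 0.01) of every gene of the 7 related lists, with circles for replicate 1 and squares for replicate 2. All 10 interferon genes lie at 0, and all genes of the peptide supply and promoter factor lists lie right of the dashed line at 1 TPM.

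The effector promoters that follow are shown because expressed and silent genes carry the same motif. Capitals mark each match to GAAANNGAA, searched on both strands. Gbp7, Ifit1, Oas3 and Oas1c were expressed, and Ifit3 and Oas1a had no read.
Gbp7, chr3:142530086-142530385, plus strand: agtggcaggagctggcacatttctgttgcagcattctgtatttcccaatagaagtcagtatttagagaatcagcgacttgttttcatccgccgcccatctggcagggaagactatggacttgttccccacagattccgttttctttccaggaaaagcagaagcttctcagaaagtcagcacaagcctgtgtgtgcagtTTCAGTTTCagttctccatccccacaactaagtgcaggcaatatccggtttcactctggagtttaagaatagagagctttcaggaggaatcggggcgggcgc
Ifit1, chr19:34640639-34640938, plus strand: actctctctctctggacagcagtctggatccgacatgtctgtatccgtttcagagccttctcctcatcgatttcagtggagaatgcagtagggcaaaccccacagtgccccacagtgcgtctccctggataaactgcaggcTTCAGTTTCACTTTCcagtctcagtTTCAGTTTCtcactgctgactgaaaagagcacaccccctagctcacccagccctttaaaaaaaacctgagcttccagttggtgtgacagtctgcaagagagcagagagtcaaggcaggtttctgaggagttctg
Oas3, chr5:120777610-120777909, minus strand: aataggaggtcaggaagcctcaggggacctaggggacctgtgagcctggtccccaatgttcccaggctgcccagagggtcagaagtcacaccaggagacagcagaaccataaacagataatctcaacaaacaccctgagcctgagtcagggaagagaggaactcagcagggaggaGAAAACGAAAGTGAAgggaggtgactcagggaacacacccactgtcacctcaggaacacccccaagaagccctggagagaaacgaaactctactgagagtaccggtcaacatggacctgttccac
Oas1c, chr5:120812465-120812764, minus strand: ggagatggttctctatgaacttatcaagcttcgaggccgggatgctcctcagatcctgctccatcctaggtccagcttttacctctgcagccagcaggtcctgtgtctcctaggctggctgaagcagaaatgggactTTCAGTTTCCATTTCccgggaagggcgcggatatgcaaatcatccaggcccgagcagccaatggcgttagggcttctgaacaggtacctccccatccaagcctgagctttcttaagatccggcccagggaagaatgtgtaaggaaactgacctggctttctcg
Ifit3, chr19:34583279-34583578, plus strand: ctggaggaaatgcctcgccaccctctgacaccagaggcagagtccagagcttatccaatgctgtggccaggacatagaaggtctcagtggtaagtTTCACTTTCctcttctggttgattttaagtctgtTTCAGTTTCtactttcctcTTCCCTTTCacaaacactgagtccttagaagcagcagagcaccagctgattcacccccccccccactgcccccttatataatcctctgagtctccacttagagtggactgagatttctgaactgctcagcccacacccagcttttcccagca
Oas1a, chr5:120907476-120907775, minus strand: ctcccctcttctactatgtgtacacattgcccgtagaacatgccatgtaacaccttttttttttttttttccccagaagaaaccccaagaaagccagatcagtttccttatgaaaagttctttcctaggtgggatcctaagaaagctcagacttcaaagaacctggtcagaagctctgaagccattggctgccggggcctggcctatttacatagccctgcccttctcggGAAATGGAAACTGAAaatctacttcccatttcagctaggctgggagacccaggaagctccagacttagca
The sequences are from RefSeq on GRCm38.p6. The match began 52 bases before the start in Gbp7, at 109, 103 and 84 bases in Ifit1, and at 75 and 69 in Oas3. It began at 113 and 107 bases in Oas1c, at 155, 121 and 102 in Ifit3, and at 20 and 14 in Oas1a. Matches 6 bases apart overlap, as in Ifit1, Oas3, Oas1c and Oas1a. Isg20, Oasl2 and Oas1f, taken by the same order of levels, held no match in this window.

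The core occurred in 8.56% of the 32851 promoters. Counted by gene over any of its promoters, it occurred in 9.76% of the 27025 genes of the table and in 14 of the 20 effector genes with a promoter sequence. It was present in 4 of 6 expressed, 2 of 3 single-library and 8 of 11 silent effector genes. The presence of these letters therefore did not separate expressed from silent effectors. Over all 67 genes with a promoter, 9 of 32 expressed and 8 of 30 silent genes held it. The gamma-activated site TTCNNNGAA, searched on both strands, occurred in 8.30% of promoters, in 9.55% of genes, in 7 of 32 expressed genes, among them Irf1, Ifnar1, Ifnar2 and Gbp7, and in 3 of 30 silent genes.

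Gene totals hid which transcripts carried the reads. Of the 37 expressed genes, 13 had at least 99% of their TPM on transcripts annotated as coding in both libraries, among them B2m, Irf2, Ifit1, H2-D1 and Stat2. H2-T22 had 84.4% and 68.1% on H2-T22-205, which is annotated for nonsense-mediated decay, so its coding transcripts were at 2.41 and 6.97 TPM. Irf7 had 76.6% and 88.0% on Irf7-206, a retained-intron transcript of 708 bases, and 6.56% and 5.51% on coding ones. These shares place H2-T22 and Irf7 lower by coding message than by gene total in both libraries.

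Other genes showed the same division. Tap2 held 13.4% and 13.9% of its TPM on coding transcripts, Irf1 40.7% and 30.7%, and Oasl2 24.1% and 11.5%. For Irf3, 85.1% of TPM lay on transcripts without a match in the annotation used, and its coding share was not interpreted. H2-Q4 had all of its TPM on a retained-intron transcript in replicate 1 and 15.1% in replicate 2, so its main transcript was not the same in the libraries. H2-Ab1 had 92.9% on coding transcripts in replicate 1 and none in replicate 2. On coding transcripts alone, 30 of the 37 genes stayed at 1 TPM or more in both libraries. Irf3, at 0.71 and 2.35 on matched coding transcripts, was not among the 30, but most of its TPM could not be classed. Single-end reads placed by estimation give these shares no error of their own here.

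The libraries differed widely for many of these genes. The log2 ratio of replicate 2 over replicate 1, from counts scaled by TMM with a prior count of 1, was taken for the 48 genes that averaged 10 counts or more. It reached 2-fold in 14 of them, against 31.5% of all genes. It was 2-fold higher in replicate 2 for 8 (15.0% of all genes) and in replicate 1 for 6 (16.5% of all genes). The shares were thus close to the background. Toward replicate 2 the largest ratios were those of Ciita (1.76), Irf7 (1.47) and Irf9 (1.22), followed by Irf1, H2-K1, H2-Ke6, Tap2 and H2-D1 at 1.19 to 1.01. Toward replicate 1 they were those of H2-Ab1 (-1.66), H2-Eb1 (-1.41) and H2-Ob (-1.34), followed by B2m (-1.29), Gbp9 (-1.27) and H2-Q7 (-1.24).

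By TPM, 26 of the 37 expressed genes were higher in replicate 2, against 59.3% of expressed protein-coding genes. TPM and read counts could part. H2-Ob was at 1.63 and 1.62 TPM but had 104 and 26 estimated reads, and a retained-intron transcript held 0% of its TPM in replicate 1 and 72.2% in replicate 2.

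The ratio moved with the GC content of the transcripts. Across 47 of these genes Spearman's rho between ratio and GC content was 0.56, and across 11335 protein-coding genes it was 0.71, both given as descriptions over genes of the same pair of libraries. B2m, at 41.2% GC, was higher in replicate 1, and H2-K1, at 56.9% GC, was higher in replicate 2. With the GC trend removed, B2m was at -0.29, H2-D1 at 0.37 and H2-K1 at 0.31, all within 2-fold. Then 5 genes were past 2-fold, against 16.4% of all genes. H2-Ab1 (-2.09), H2-Eb1 (-1.89) and H2-Q7 (-1.75) lay toward replicate 1 and Ciita (1.17) toward replicate 2, as they had before, and Gbp7, at 0.42 before, was at 1.06. Of these, Gbp7 alone had more than 100 reads in each library. The turnover by gene total between B2m and the summed heavy chains thus stands on genes that differ in GC content. The part of GC content in that turnover was not tested beyond these values.

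**Figure D5:**
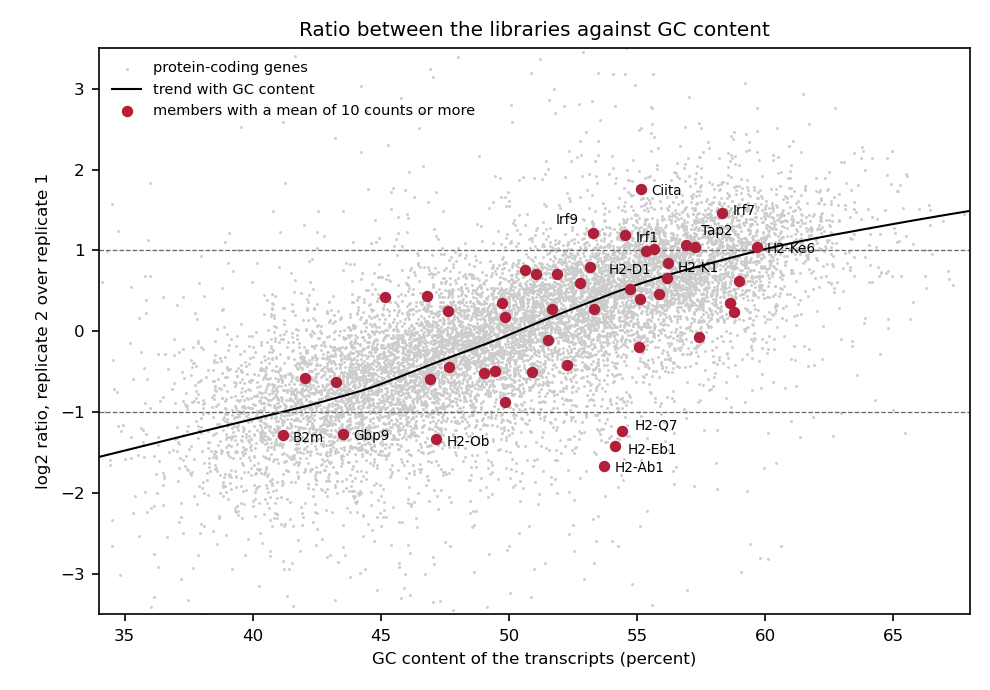
Log2 ratio of replicate 2 over replicate 1 against transcript GC content (percent), with protein-coding genes in grey, the 47 genes with a GC value and a mean of at least 10 counts in red, and the trend over protein-coding genes as a line. Dashed lines mark 2-fold, the 14 genes past it are named, and B2m lies near the trend while H2-Ab1, H2-Eb1 and H2-Q7 lie far below it.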

How the data were processed

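PolyA RNA of MEL cells in 2% DMSO for 5 days was measured in 2 libraries of 1 group. The build was mm10, per the labels, and the annotation GENCODE M4, per the submitters' file lists. Program, aligner and strand setting: not given in the sources used here. Per the file headers, the authors deposited expected counts (reads divided among genes and transcripts by estimation, unscaled), TPM and FPKM (scaled to effective length and library size), posterior means and SDs, credibility bounds (listed here as signal values that are never negative, level not given) and the percent of a gene's expression on each transcript. Estimation can move reads between near-identical copies, and TPM also counts rows that name no gene (0.806% and 1.49% of TPM, and 0.0296% and 0.0465% of reads).

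Symbols, coordinates and transcript classes came from GENCODE M21 by Ensembl ID (42462 of 43346 genes matched), and promoters from RefSeq (GRCm38.p6, 67 of 83 genes matched). Depth was 26149725 and 14149299 counts, with a floor of 3 counts. Ratios used rounded expected counts, TMM and a prior count of 1 (edgeR 4.0.16, R 4.3.3), and the GC trend a lowess curve (span 0.3, statsmodels 0.14.6) over coding genes that averaged 100 counts or more. The ratio step was tested on simulated data. Other steps used Python 3.11.15, pandas 2.3.3, numpy 2.4.6, scipy 1.17.1, biopython 1.88 and matplotlib 3.10.9. Coding sequences were aligned in pairs for identity.

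The genes and lists were chosen with earlier results of these data known. Named were all expressed and single-library genes, the 6 highest silent ones, silent genes of the main families, the 4 highest and 2 lowest of each list (Cxcl10 and the sensors Mb21d1 and Tmem173, the receptor kinases, the paired proteasome subunits and further class II partners were added by choice), and the 3 largest ratios each way. Printed effector promoters were those with a match among the 6 highest expressed and the 3 lowest silent effectors with a sequence. Alternatives were other limits, units, transcripts, scalings, filters and each library alone, including size factors from DESeq2 1.42.0. Some genes that this rule takes are counted but not reported singly here. No test was made, and the spread between the libraries may be technical.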

Additional observations from a re-analysis of the deposited data

How the results depend on the processing

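The number of expressed genes stayed between 30 and 43, that of silent genes between 33 and 49, and that of expressed pathway genes between 64 and 75, over limits of 0.5 and 2 TPM, posterior means, FPKM, CPM, coding transcripts alone and each library alone. The median level of 0.785 TPM became 0.945 with posterior means, 1.38 with TPM rescaled to protein-coding nuclear genes, 0.635 on coding transcripts, 1.96 without the 18 genes that had no read, and 0.82 to 0.96 with 1 library left out. The summed class I level of 95.2 TPM became 159 after rescaling and 70.05 to 120.38 with 1 library left out. The 14 genes past 2-fold became 26 with no filter on counts, 9 with a mean of at least 50 counts and 5 with the GC trend removed, and 14 to 17 under the other scalings, a prior count of 5 or a TPM ratio. Fewer genes entered under the stricter filter and more under none; for the other shifts the cause was not tested. No paired analysis was possible because the study has 1 group. Depth limits the lowest values: genes near 1 TPM rest on as few as 7 reads in replicate 2, as for H2-Eb1.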

Other observations

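Some H2, Oas and Mx genes are annotated as pseudogenes in the reference strain and so fall outside the protein-coding genes above, although some mouse strains carry working copies. Among 14 such pseudogenes, Oas1b was at 1.57 TPM in replicate 1 and 1.71 in replicate 2, and H2-T10 at 1.04 and 1.65. H2-Ea-ps, the class II E alpha gene, was at 0.84 and 6.26, with 13 and 55 estimated reads, and in replicate 2 it was above H2-Eb1, the gene of its partner chain, at 0.45. Mx2 was at 0.52 and 0.03. The other 10 were also under 1 TPM in both libraries, and Gbp11, H2-Pb and H2-M10.5-ps1 had no read in either library.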
